A study of Schizosaccharomyces pombe with 2 samples.

Results

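The genes of secretory and Golgi traffic described here are the *S. pombe* genes whose platform symbol is sec, cog, trs, erv, emp, bet, sed, sft, gos, ret or exo followed by digits, apart from *exo1*, and that have a probe set naming them alone. The rule found 63 of the 2899 nuclear genes that could be followed by name, each with 1 probe set. It used symbols and no measured value, but a gene could be followed only where its probe set had a nonzero signal on both arrays. Of these 63 genes, 59 encode proteins of the pathway. The other 4 share only the spelling of the symbol: *erv1*, a mitochondrial sulfhydryl oxidase, the nuclease genes *exo2* and *exo5*, and *trs1*, a threonyl-tRNA synthetase with the older name *ths1*. *exo2* and *exo5* were matched by gene identifier, because the same words are older names of the exocyst genes *sec5* and *sec10*. A further 15 genes of the gene table carry a symbol of this kind but were not followed here, among them the exocyst genes *sec3*, *sec5* and *exo8*.

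Wild-type (wt) cells of strain JK107 were compared with cells of strain JP2247, from which *sgo2* is deleted (*sgo2*Δ), to ask which transcripts depend on Shugoshin 2. Both strains are *h*- and carry no other named allele in the labels, and both were grown exponentially in YES, a rich medium, at 32 °C with no drug or shift. Poly(A) RNA of each strain was hybridized to 1 GeneChip Yeast Genome 2.0 array, and the values are scaled signal intensities on a linear scale. With 1 array per strain there is no spread between replicates, so no p-value is given, and no difference below can be set against culture-to-culture error. Fewer cells with a transcript and less transcript per cell cannot be told apart in such RNA. The deleted gene checks the labels. The wt signal of *sgo2* was 581.5 and its signal in the deletion strain 2.81, a fold of at least 5.82 when the latter is set to 100. Over the 2796 genes that reached a signal of 100 on at least 1 array, the median log2 ratio (*sgo2*Δ over wt) was 0.13, and the ratios below are read against that value and not against 0.

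In the secretory pathway, proteins enter the endoplasmic reticulum (ER) through a translocation channel, leave it in vesicles coated with COPII, and return from the Golgi in vesicles coated with COPI (coatomer). Tethering complexes catch a vesicle at its target before SNARE proteins fuse the membranes: TRAPP and COG act at the Golgi, and the exocyst acts at the plasma membrane. Small GTPases of the Arf, Sar1 and Rab families, switched on by exchange factors, set where coats and tethers assemble. In fission yeast this traffic supplies the growing cell tips and the division septum with wall enzymes and membrane.

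None of these genes with a signal of 100 or more differed 2-fold between the strains. Of the 63 genes, 62 reached a signal of 100, and a fold of at least 2 in favour of *sgo2*Δ was found for 0 of the 62, against 0.536% of all genes. Likewise 0 were at least 2-fold lower, against 0.0358%. At a lower fold of 1.5 the counts were also 0 higher, against 1% of all genes, and 0 lower, against 0.107%. With backgrounds this small, a count of 0 among 62 genes does not set them apart from the rest. Their log2 ratios ran from -0.33 (*cog4*) to 0.41 (*sft2*), with a median of 0.16 (order-statistic interval across genes 0.14 to 0.19), which is 0.032 above the median of all genes. Of the 62, 52 had the higher signal in *sgo2*Δ (83.9%, against 84.7% of all genes). The plot of signals on both arrays shows each gene.

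**Figure D1:**
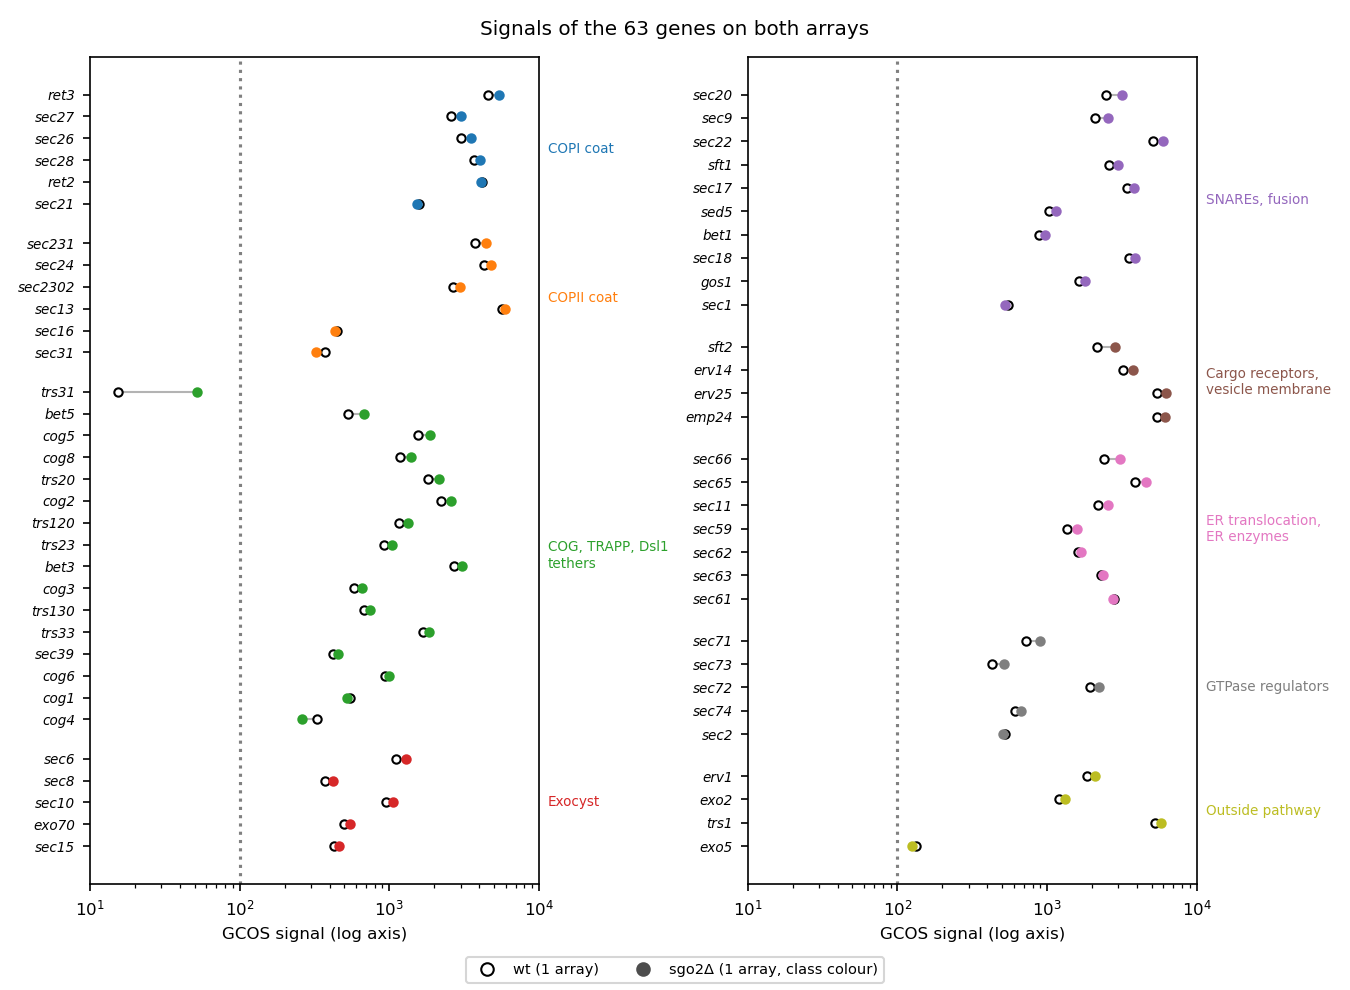
GCOS signal of each of the 63 genes on the wt array (open circles) and the *sgo2*Δ array (filled circles), on a log axis, grouped by class and ordered by ratio. The dotted line marks a signal of 100, and the circles of each gene lie close together except for *trs31*, which stays under the line on both arrays.

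Array ratios spread more widely at low signal, so each gene was also set against the 200 genes nearest to it in mean signal. A gene was taken to stand apart where its log2 ratio lay outside the central 95% of those genes. This describes the spread between genes on these arrays and is no test. Of the 62 genes, 2 lay above it (3.23%, against 3% of all genes), and 0 lay below (against 2.79%), so these shares are near the background. Measured from the median of genes of like signal, 38 of the 62 were higher (61.3%, against 49.9% of all genes). The plot of ratio against signal shows these limits.

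**Figure D2:**
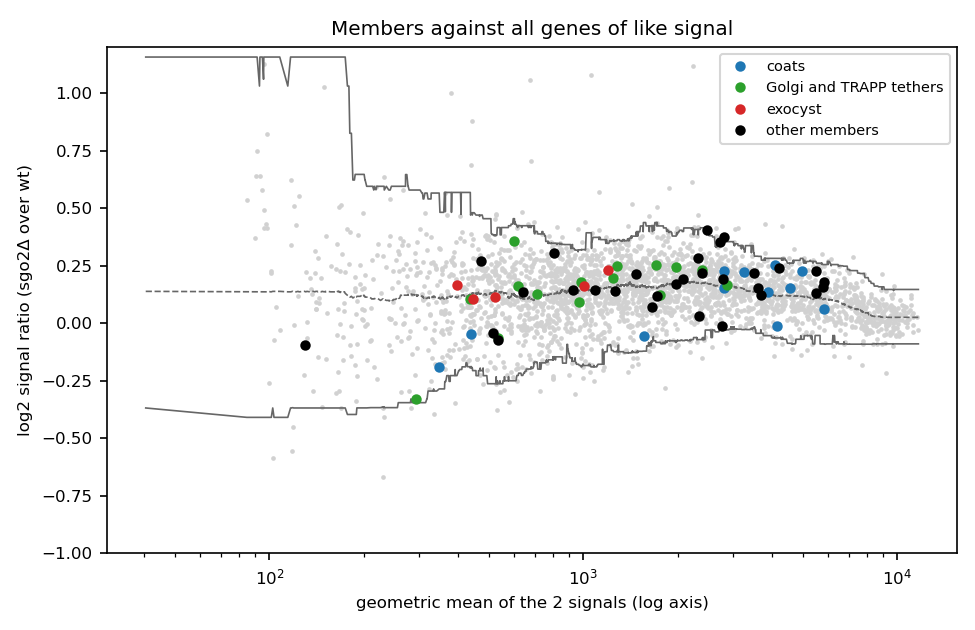
log2 signal ratio (*sgo2*Δ over wt) against the geometric mean of both signals (log axis) for all genes that reached a signal of 100 (grey points) and for the 62 genes described (coloured points). Solid lines enclose the central 95% and the dashed line is the median of the 200 genes nearest in signal. Of all genes that reached a signal of 100, 11 lie beyond the vertical axis. The coloured points follow the grey cloud, with *sft2* and *sec20* just above the upper line.

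Coat genes had a median log2 ratio of 0.14 over 12 genes (interval -0.046 to 0.23), and 7 of the 12 lay above the median of all genes. Of the 6 coatomer genes that were followed, *ret3*, the ζ subunit, had signals of 4593 in wt and 5379.5 in *sgo2*Δ, a log2 ratio of 0.23. *sec27*, the β′ subunit, had 2586 and 3025 (0.23). The β subunit gene *sec26* (0.22) lay with these, and the ε subunit gene *sec28* (0.14) lay near the median of all genes. The remaining coatomer genes that were followed lay under that median: *ret2*, the δ subunit, at -0.010, and *sec21*, the γ subunit, with signals of 1587.5 and 1525 and a log2 ratio of -0.058. Subunits of 1 complex thus differed by 0.29 on the log2 scale from *ret3* to *sec21*, while all 6 stayed inside the central 95% of genes of like signal.

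Among the 6 COPII genes the median was 0.11. *sec231*, which encodes a Sec23 protein of the inner shell that makes Sar1 hydrolyse its GTP, had the highest ratio of all coat genes, with signals of 3741 and 4452 (log2 ratio 0.25). Its paralog *sec2302* had 2657.5 and 2953 (0.15), and *sec24*, whose product selects cargo in the same shell, had 4312 and 4796 (0.15). Genes of the outer cage and of the exit site scaffold lay lower. *sec13*, which also serves in the nuclear pore, had a log2 ratio of 0.061. *sec16*, the scaffold of ER exit sites, had signals of 445.4 and 431.5 (-0.046), and *sec31*, the partner of *sec13* in the cage, had 371.0 and 325.4 (-0.19), the lowest coat value. The probe sets of *sec16* and *sec31* were dim, and the central 95% of genes of like signal ran from -0.29 to 0.57 for *sec31*.

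The tether genes of the COG, TRAPP and Dsl1 complexes numbered 16, of which 15 reached a signal of 100. Their median log2 ratio was 0.16 (interval 0.11 to 0.25), and 9 of the 15 lay above the median of all genes. COG, which guides vesicles moving back within the Golgi, was followed through 7 genes with a median of 0.16. *cog5* had signals of 1561 in wt and 1858 in *sgo2*Δ (0.25), and *cog8* had 1174 and 1396 (0.25). *cog2* (0.23) and *cog3* (0.16) also lay above the median of all genes. At the other end, *cog6* had 939.1 and 1002 (0.094), and *cog1* had 547.4 and 523.8 (-0.064). *cog4* had 328.9 and 262.0 (-0.33), the lowest ratio of all 62 genes. *cog4* was read from a dim probe set and lay just inside the lower limit for genes of like signal (-0.35). The SD across the COG genes was 0.21, or 0.12 without *cog4*. That across the 7 TRAPP genes that reached a signal of 100 was 0.081, which leaves out the dim *trs31*. The difference in spread was not tested.

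TRAPP, which also activates Rab GTPases, was followed through 8 genes, 7 of them above a signal of 100, with a median of 0.18 and 5 of the 7 above the median of all genes. *bet5*, a core subunit, had signals of 530.3 and 678.5 (log2 ratio 0.36), the highest of the tethers. The core genes *trs20* (0.24), *trs23* (0.18), *bet3* (0.16) and *trs33* (0.12) followed, with *trs120* (0.20) and *trs130* (0.13), subunits known in budding yeast for later Golgi traffic, among them. The core gene *trs31* did not reach that signal, with signals of 15.5 in wt and 51.6 in *sgo2*Δ. Since both lie under 100, no fold is given for it. *sec39*, which in budding yeast belongs to the Dsl1 tether of the ER, had 420.4 and 452.3 (0.11).

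Exocyst genes were measured for 5 of the 8 subunits in the gene table, and 3 of the 5 lay above the median of all genes. *sec6* had signals of 1102 in wt and 1294 in *sgo2*Δ, a log2 ratio of 0.23. *sec8* had 373.3 and 419.3 (0.17), and *sec10* had 952.6 and 1067 (0.16). The remaining ratios were slightly under the median of all genes. *exo70*, whose product in budding yeast binds lipids of the plasma membrane, had 500.9 and 542.4 (0.11), and *sec15*, which in budding yeast meets the Rab GTPase on the vesicle, had 429.5 and 461.8 (0.10). With a range of 0.10 to 0.23 and an SD across genes of 0.051, these 5 genes stand beside an SD of 0.14 for the coat genes and 0.16 for the tether genes (0.098 without *cog4*). The spread was not tested between classes, which differ in number of genes and in signal.

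Coat, tether and exocyst genes had medians within 0.020 of each other. The median of the coat genes lay 0.020 below that of the exocyst and 0.020 below that of the tethers, and the tether median exceeded the exocyst median by 0.00037. All 5 exocyst values lay within the range of the coat genes and within that of the tethers. Of the coat genes, 12 of 12 lay within the range of the tethers, and 12 of 15 tethers lay within the range of the coats. The order of the classes depended on the scaling, as the plot of class medians shows. After quantile normalization, which moved the median of all genes to -0.019, the medians were -0.011 for coats, 0.013 for tethers and -0.019 for the exocyst, so that the exocyst ranked lowest. With a pseudocount of 100 the exocyst (0.13) ranked below the coats (0.14) and tethers (0.16). A pseudocount shrinks ratios of dim genes most, and the median wt signal was 500.9 for the exocyst, 3346 for coats and 939.1 for tethers. Against genes of like signal the exocyst (0.015) ranked above the coats (6.9e-05) and below the tethers (0.036).

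**Figure D3:**
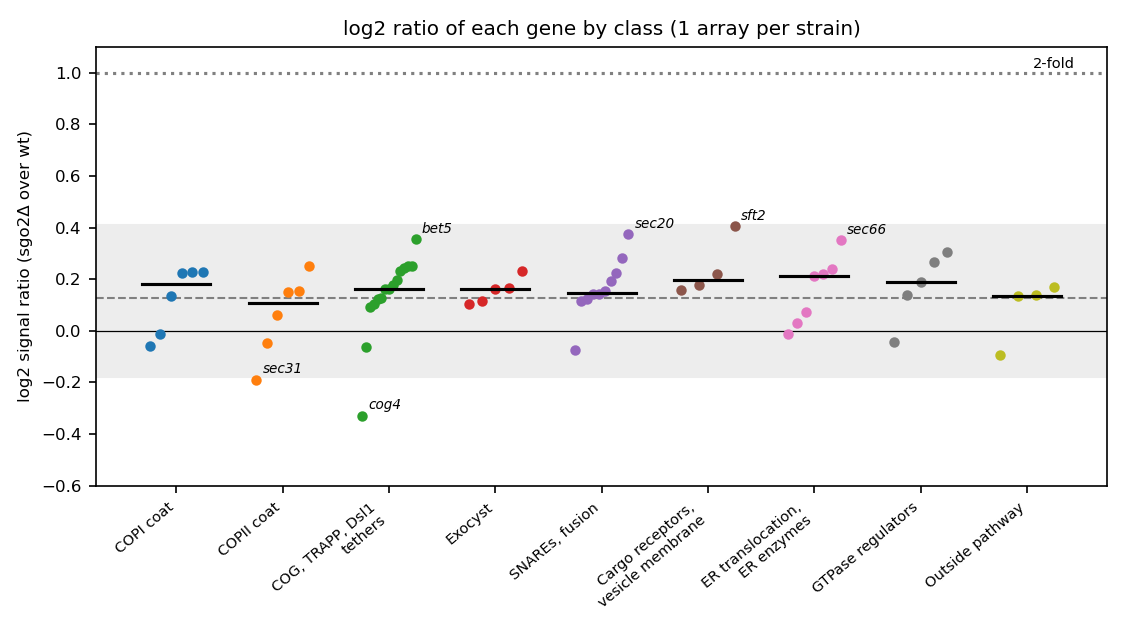
log2 signal ratio (*sgo2*Δ over wt) of each of the 62 genes by class, as points, with class medians as black bars. The dashed line is the median of all genes (0.13), the grey band the central 95% of all genes (-0.18 to 0.41), and the dotted line a 2-fold difference; every class overlaps the others, and *cog4* and *sec31* lie lowest.

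**Figure D4:**
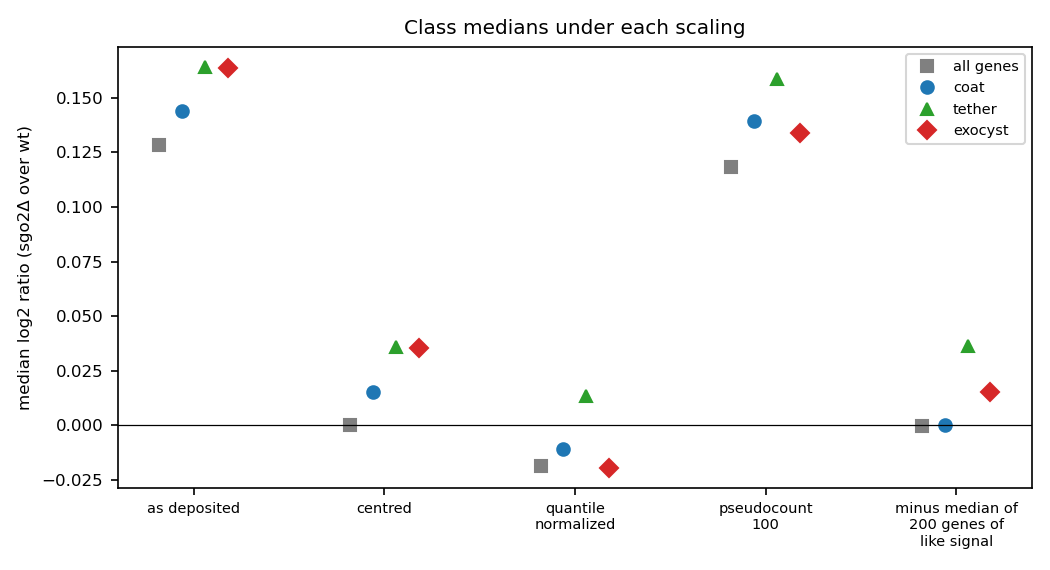
Median log2 ratio (*sgo2*Δ over wt) of all genes and of the coat, tether and exocyst genes as deposited, after centring, after quantile normalization, with a pseudocount of 100, and relative to the 200 genes of like signal. The class medians move with the median of all genes, and the exocyst changes rank against the coats.

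The genes of SNAREs and fusion factors had a median log2 ratio of 0.15 over 10 genes, 7 of them above the median of all genes. *sec20*, a SNARE of Golgi-to-ER traffic in budding yeast, had signals of 2463 and 3193 (0.37), above the upper limit of 0.35 for genes of like signal. *sec9*, the SNAP-25-like SNARE of the plasma membrane, had a log2 ratio of 0.28 and *sec22*, a SNARE between ER and Golgi, 0.22. The Golgi SNARE genes *sft1* (0.19), *sed5* (0.14), *bet1* (0.14) and *gos1* (0.12) lay around the median of all genes. So did *sec17* (0.15) and *sec18* (0.12), whose products take used SNARE complexes apart. *sec1*, which assists fusion at the plasma membrane, had 549.4 and 522.2 (-0.073), the lowest of the class.

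The 4 genes of cargo receptors and vesicle membrane proteins all lay above the median of all genes, with a median of 0.20. *sft2*, a Golgi membrane protein known in budding yeast for fusion of vesicles arriving from endosomes, had signals of 2144 and 2842.5, a log2 ratio of 0.41 against an upper limit of 0.38 for genes of like signal. *erv14*, a receptor for membrane cargo, had a ratio of 0.22. The p24 genes *erv25*, with 5473 and 6190.1 (0.18), and *emp24*, with 5471 and 6107 (0.16), had nearly the same ratio. Both lay between the 25th and 75th percentile of all genes (0.046 to 0.22). Their products form 1 complex in COPII and COPI vesicles, and a link between this and the ratios was not tested.

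Genes that act at the ER had a median log2 ratio of 0.21 over 7 genes, 4 of them above the median of all genes. *sec66*, a translocon subunit for entry after translation, had signals of 2408 and 3075 (log2 ratio 0.35), just under its upper limit. The other translocon genes lay under the median of all genes: *sec62* at 0.072, *sec63* at 0.029 and *sec61*, the channel itself, with 2787 and 2759.6 (-0.014). The remaining ER genes lay close together, with *sec65*, a subunit of the signal recognition particle, at 0.24, *sec11*, the signal peptidase, at 0.22 and the dolichol kinase gene *sec59* at 0.21.

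Among regulators of GTPases, the 4 Arf exchange factor genes all lay above the median of all genes, with a median of 0.23. *sec71* had signals of 723.2 and 894.4 (0.31), *sec73* had 430.3 and 518.4 (0.27), *sec72* had 1950.3 and 2225 (0.19) and *sec74* had 611.4 and 672.5 (0.14). All 4 stayed inside the limits for genes of like signal. *sec2*, a Rab exchange factor for exocytosis in budding yeast, had 521.2 and 506.5 (-0.042). Of the 4 genes outside the pathway, *erv1*, with 1859 and 2091 (0.17), *exo2* (0.14) and *trs1* (0.13) lay near the median of all genes. The dim *exo5*, with 133.8 and 125.5, lay at -0.093.

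Which side of the median a gene fell on was compared in 3 ways: as deposited, after quantile normalization, and against genes of like signal. These readings rescale the same pair of arrays, so agreement between them is largely built in and is no independent check. The share of all genes on the same side in all 3 was not counted, so the counts below have no background beside them. Of the 62 genes, 35 lay above in all 3, 20 below in all 3, and 7 changed side, among them *sec8*, *sec2302* and *sed5*. The 4 Arf exchange factor genes and the 4 genes of cargo receptors and vesicle membrane proteins were above in all 3. Among the coats, 6 were above and 5 below in all 3, and in the exocyst 2 were above (*sec6*, *sec10*) and 2 below (*exo70*, *sec15*). Against genes of like signal, the largest differences were 0.24 (*sft2*), 0.23 (*bet5*) and 0.21 (*sec20*) above, and -0.45 (*cog4*) and -0.30 (*sec31*) below.

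The 63 genes are spread over the chromosomes, with 27 on chromosome 1, 24 on chromosome 2 and 12 on chromosome 3, and median log2 ratios of 0.15, 0.16 and 0.16. Of the 2796 followed genes that entered the counts, 15 had a fold of at least 2 in favour of *sgo2*Δ. Genes without a probe set naming them alone and with a nonzero signal on both arrays were not examined. The 15 genes all lay between the 12th and the 36th protein-coding gene from an end of chromosome 1 or 2. None of the genes described here lay that close. The nearest to an end were *sec16* on chromosome 1 and *cog3* on chromosome 2, each the 52nd gene. Their log2 ratios were -0.046 and 0.16. *sec16* lay 16 genes from *mmf2*, the nearest followed gene with a 2-fold difference.

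For comparison, 92 further genes of ER, Golgi and plasma membrane traffic were listed by other symbols. Of these, 64 had a probe set naming them alone with a nonzero signal on both arrays, and 63 reached a signal of 100. Their median log2 ratio was 0.11 (interval 0.082 to 0.14), under the median of all genes by 0.022. At 1.5-fold, 0 of 63 were higher, against 1% of all genes, and 0 were lower, against 0.107%. *gmh1*, a galactosyltransferase of the Golgi, had signals of 168.2 and 234.3 (0.48), and *tlg2*, a SNARE of the late Golgi, had 1156 and 1468 (0.34). *ryh1*, the Rab6-like GTPase, had 648.0 and 551.8 (-0.23). Below the central 95% of genes of like signal lay 2 of the 63, near the share of 2.79% over all genes. Above it lay 0, against 3% of all genes. The 2 below were *ost1*, a subunit of the oligosaccharyltransferase, with 4254 and 3855 (-0.14), and *gyp10*, a GTPase-activating protein, with 2283 and 2096 (-0.12). The difference between this list and the 62 genes was not tested.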

How the data were processed

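Scanning, scaling and comparison of arrays were done by the authors in GCOS 1.4 at default settings, with masking of *S. cerevisiae* probe sets. What they deposited is 1 linear signal intensity per probe set and array. Of 10928 probe sets, 5748 are listed at 0 on both arrays. The scale factor is not given in the sources used here. Names came from the platform annotation, matched by gene identifier to the gene table of ASM294v3, which was used for names and gene order only.

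Signals were turned to log2 and subtracted (*sgo2*Δ minus wt), averaging over probe sets where a gene had several. Probe sets without a nonzero signal on both arrays were left out, also in the alternative with no floor. A gene entered medians and counts where the brighter signal reached 100. Intervals of medians are order-statistic intervals across genes at a level of about 95% (the full range for the smallest classes) and cover no variation between cultures. The number of arrays limits the precision.

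The genes and lists were chosen with earlier results of these data known. Signals are given for all exocyst genes, the 3 highest and 3 lowest ratios of coats and of tethers, the extremes of other classes, paralogs, and genes outside the limits for genes of like signal. *exo5*, *trs1* and *sec2302* were placed in classes and *gyp10* was named after values were seen. The calculation was run on simulated data with the same spread for all genes. The check required only that planted changes larger than 2-fold were counted as such. It gives no measure of error for the small ratios above or for dim genes. Alternatives were centring, quantile normalization, a pseudocount, other signal floors, the brightest probe set, and leaving out the 4 genes outside the pathway. Scripts ran under Python 3.11.15 (pandas 2.3.3, numpy 2.4.6, matplotlib 3.10.9 and scipy 1.17.1).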

Additional observations from a re-analysis of the deposited data

How the results depend on the processing

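No paired analysis was possible because there is only 1 array for each strain, and leaving out a replicate could not be run. Of 92 values for groups and counts under an alternative, 76 stayed within their interval, within 1.5 times or within the spread across genes, and 16 did not. Some of the 76 could not change by construction, such as class medians with the brightest probe set, so the count overstates stability. With a floor of 50 or none, *trs31* alone became 2-fold higher (1 gene at 2-fold and 1 at 1.5-fold), from signals under 100. In all 7 alternatives recounted, 0 genes were 2-fold lower. By its construction, centring removes the shift of 0.13 and gave medians of 0.032 for all 62 genes, 0.036 for tethers, 0.035 for the exocyst and -0.022 for the other pathway genes. With quantile normalization these were 0.0020, 0.013, -0.019 and -0.036. Measured against genes of like signal, an alternative chosen after seeing the data, they were 0.023, 0.036, 0.015 and -0.016. Coat medians stayed within their wider interval. The pseudocount moved none of these medians beyond its interval. The brightest probe set could not move the medians of the 62 genes or their classes, because each gene had 1 probe set. Leaving out the genes outside the pathway could not move the class medians, and the median of the members stayed at 0.16. Of 186 values for single genes, 70 moved beyond the SD of genes of like signal, 30 of them with centring and 40 with quantile normalization. Centring shifts every gene by the same 0.13, so those 30 are only the genes whose SD is smaller than the shift. *sft2* and *sec20* stayed outside the limits for genes of like signal in every setting in which these were recomputed, and *cog4* joined them, below, with quantile normalization. Signal over background limits *trs31*, *exo5* and the other dim genes.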
